A study of Homo sapiens with 6 samples.

Results

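Replicate 1 of HCT116, an established human colorectal carcinoma cell line, was compared with replicates 2 and 3 of the same experiment across all genes measured. The series holds 6 poly(A) RNA sequencing libraries from HCT116 cells, 3 transduced with shNC (a non-targeting shRNA, titles C1 to C3) and 3 with PLEK2 knockdown (titles sh1 to sh3). The 2 libraries numbered 1, shNC replicate 1 and PLEK2 shRNA replicate 1, were set against the 4 libraries numbered 2 or 3, with treatment as a covariate. Of 17047 genes listed, the 12510 with at least 10 counts in every library entered, and 4537 with fewer did not. All 6 libraries carry an shRNA vector, and no untransduced cells were analysed here. The labels give only the number of each library and do not say whether the replicates were separate cultures, passages or extractions, nor when any library was made, so a difference in the cells and a difference in how the libraries were made cannot be told apart.

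The comparison was chosen by its readout. It was selected on the first principal component of log2 CPM. CPM of genes are counts scaled to the library total after TMM adjustment of that total, and summed levels of lists use the unadjusted total. The component held 55.9% of the variance. It placed shNC replicate 1 at 16.0 and PLEK2 shRNA replicate 1 at 26.8, against values from -17.6 to -6.11 in the other 4 libraries. The replicate 1 differences below are therefore a description, with no test, and they support nothing about the groups. Tests are given for 3 contrasts that the choice did not use, namely whether the replicate 1 difference itself differed between shNC and PLEK2 shRNA, replicate 3 against replicate 2, and PLEK2 shRNA against shNC at a given replicate 1 level.

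As background, the level that RNA sequencing gives a gene depends on the amount of its RNA and on how well its fragments pass through priming, PCR amplification and sequencing. Fragments rich in G and C and fragments rich in A and T pass these steps with different ease, and the balance can shift from one library to the next. Cultured epithelial cells also change their RNA with density, nutrient supply and growth rate. Genes of cholesterol synthesis answer to sterol supply through the SREBP transcription factors, ATF4 targets answer to amino acid shortage and other stress, p53 targets answer to DNA damage, and the genes of mitosis follow the share of dividing cells.

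Total counts ran from 14377532 to 15602732 per library, and 15381 to 15507 genes had a count. The 10 most abundant genes took 5.67% to 6.02% of the counts. Each treatment holds 1 library of replicate 1. The epithelial label of the line was checked on marker lists. Of 12 epithelial markers all 12 passed the filter, while 3 of 11 mesenchymal and fibroblast markers and 1 of 7 blood cell markers did. The summed level of the mesenchymal markers was 78.8 and 65.2 CPM in replicate 1 and 89.8 to 95.8 CPM elsewhere, and that of the blood markers, almost all of it CD68, was 37.9 and 39.4 against 46.7 to 54.6 CPM. The lowest count of CD3E, HBB, LST1, PECAM1, COL1A2, COL3A1 and PDGFRA over the libraries was 0. Of 16 genes of intestinal differentiation in the table, 4 passed the filter. The part of other cell types in the results was not tested.

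A gene was counted as higher or lower in replicate 1 when its fitted log2 difference reached 1.5-fold and both replicate 1 libraries lay beyond all 4 others. By this rule 350 genes (2.8% of 12510) were counted as higher and 274 (2.19%) as lower. Without shNC replicate 1 the counts were 651 and 318, and without PLEK2 shRNA replicate 1 they were 292 and 540. With no limit on the fold, 3044 genes (24.3%) lay higher in both replicate 1 libraries than in all others and 2943 (23.5%) lay lower. The differences were mostly modest. The median size of the fitted difference was 0.19 on the log2 scale, where 1 is a doubling, its 5th and 95th percentiles were -0.46 and 0.50, and at a 2-fold limit 29 genes were counted as higher and 12 as lower. The median size of the difference between replicates 3 and 2 was 0.082, and since replicate 1 was chosen for standing apart, nothing is read from the gap. Near the limit, PGAP1 at 0.585 (SE 0.14) and ZNF165 at 0.585 (SE 0.17) were just inside, and GALNT3 at 0.584 (SE 0.11) and USP16 at 0.584 (SE 0.079) just outside. At the limit on counts, 75 genes had a lowest count of exactly 10 and entered, and 90 had a lowest count of 9 and did not.

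The difference of shNC replicate 1 from shNC 2 and 3 and the difference of PLEK2 shRNA replicate 1 from PLEK2 shRNA 2 and 3 share no library, and had the same sign in 9548 of 12510 genes (76.3%). Their correlation across genes was 0.63 (Pearson) and 0.67 (Spearman). Genes are not independent replicates, and the choice by the first component favours such a likeness, so these values carry no p.

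The replicate 1 difference ran with the base composition of the transcripts. GC content was taken from the Ensembl canonical transcript of GENCODE 44, which 12333 of the 12510 genes have. Across these genes the fitted difference and GC content had a Pearson correlation of -0.69 and a Spearman correlation of -0.73. In the quintile of genes with the lowest GC content (the genes ranked and cut into 5 equal groups), 30.7% to 40.9%, the median fitted difference was 0.30, and in the quintile with the highest, 59.0% to 76.0%, it was -0.23. The median passed through 0.14, -0.013 and -0.13 in the quintiles between. Of the 347 higher genes with a GC value, 280 were in the lowest quintile and 3 in the highest. Of the 262 lower genes, 148 were in the highest quintile and 3 in the lowest. The median GC content was 37.8% among the higher genes, 60.3% among the lower genes and 49.0% over all.

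Both replicate 1 libraries showed the slope. In the quintile of lowest GC content the median deviation from each gene's mean was 0.12 in shNC replicate 1 and 0.30 in PLEK2 shRNA replicate 1. The same genes were at -0.11 and -0.16 in shNC replicates 2 and 3 and at -0.070 and -0.059 in PLEK2 shRNA replicates 2 and 3. In the quintile of highest GC content the replicate 1 libraries were at -0.12 and -0.19, the other shNC libraries at 0.12 and 0.16, and the other PLEK2 shRNA libraries at 0.024 and 0.0095. The mean GC content of the transcripts, weighted by counts, was 49.7% and 49.2% in replicate 1 and 50.2% to 50.7% in the other 4 libraries. The difference rose with transcript length, with a Pearson correlation of 0.20 against log2 length. In the shortest quintile of transcripts the median difference was -0.065, and in the longest, from 5806 nt, it was 0.081, with 151 of the higher genes there. The median length was 5299 nt among the higher genes, 2806 nt among the lower genes and 3368 nt over all.

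**Figure D1:**
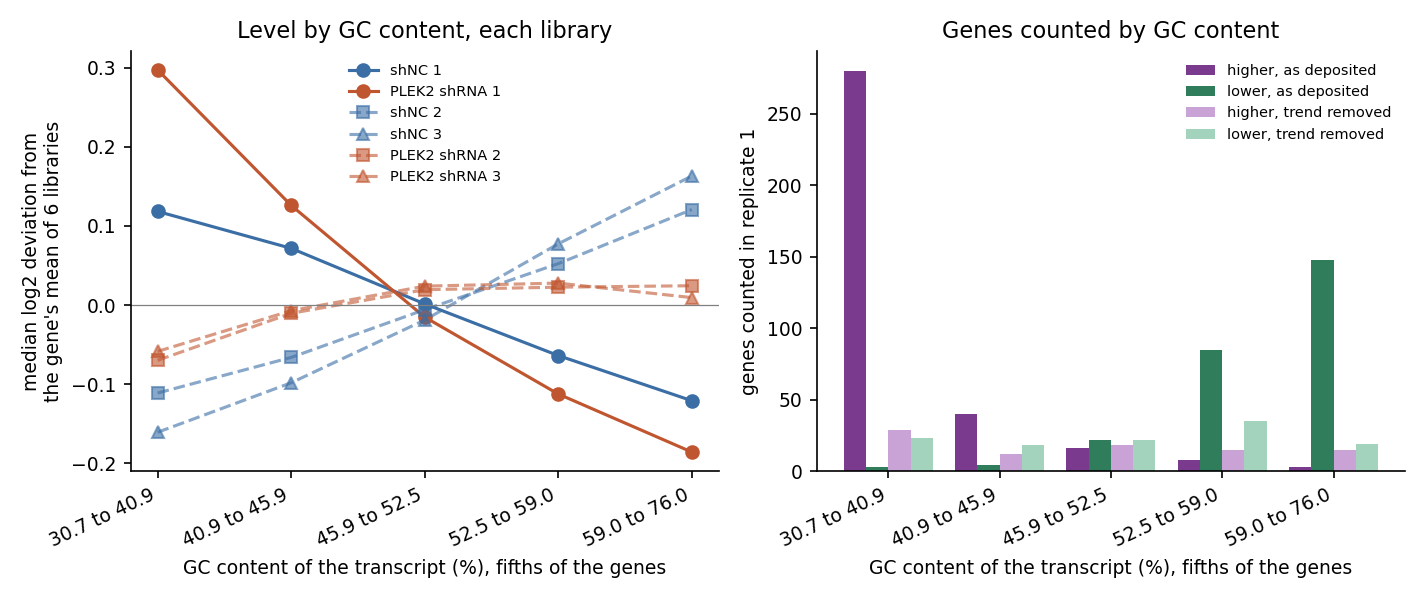
Left, median log2 deviation of each library from the mean of the 6 libraries, by quintile of transcript GC content (percent), with circles for replicate 1, squares for replicate 2 and triangles for replicate 3. Right, number of genes counted as higher or lower in replicate 1 in each quintile, as deposited and with the GC and length trend removed. The 2 replicate 1 lines fall from left to right while the shNC 2 and 3 lines climb, and 280 of the higher genes sit in the first quintile.

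Stretches of coding sequence show how far apart the 2 ends of this scale are. They are the middle 120 coding bases of the GENCODE 44 canonical transcripts of 3 genes the results turn on, written 5′ to 3′ with G and C in capitals. EEA1, at chr12:92770637-92929331 on the minus strand (GRCh38), tethers early endosomes and was among the highest of the named genes. DDIT4, at chr10:72273919-72276036 on the plus strand, is an inhibitor of mTORC1 and was higher although its transcript is rich in GC. VGF, at chr7:101162509-101165569 on the minus strand, encodes a secreted neuropeptide precursor and was among the lowest.
EEA1: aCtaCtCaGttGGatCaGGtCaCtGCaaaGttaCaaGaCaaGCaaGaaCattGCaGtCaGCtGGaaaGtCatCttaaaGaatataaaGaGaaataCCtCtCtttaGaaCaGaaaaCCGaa
DDIT4: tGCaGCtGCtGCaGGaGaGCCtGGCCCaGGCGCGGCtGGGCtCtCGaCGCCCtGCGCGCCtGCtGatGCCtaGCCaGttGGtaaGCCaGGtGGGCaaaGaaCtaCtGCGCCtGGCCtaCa
VGF: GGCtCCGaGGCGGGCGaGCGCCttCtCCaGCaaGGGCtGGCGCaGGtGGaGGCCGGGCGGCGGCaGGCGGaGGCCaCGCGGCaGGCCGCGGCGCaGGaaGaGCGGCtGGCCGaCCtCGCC
Of the 120 bases, 45 are G or C in EEA1, 80 in DDIT4 and 96 in VGF. Over the whole transcript the GC content is 34.7% in EEA1, 58.0% in DDIT4 and 70.5% in VGF.

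To describe what was left beside base composition, a smooth trend on GC content and length was removed from every library, a step chosen after seeing the data. This trend held 23.1% and 47.6% of the variance of the gene deviations in shNC and PLEK2 shRNA replicate 1, 28.0% and 39.3% in shNC replicates 2 and 3, and 9.03% and 8.27% in PLEK2 shRNA replicates 2 and 3. With it removed, 89 genes (0.722% of 12333) were counted as higher in replicate 1 and 117 (0.949%) as lower. Of the 347 higher genes, 66 stayed counted (19.0%), and they made up 74.2% of the 89. Of the 262 lower genes, 81 stayed (30.9%), and they made up 69.2% of the 117. No gene was counted in opposite directions by the 2 fits. The median size of the difference went from 0.19 to 0.12, and the first component still placed the replicate 1 libraries at 12.2 and 16.3 and the others from -10.2 to -5.21, with 40.5% of the variance. A change in the cells that touches mostly genes of low GC content would be removed by this step too, so the values with and without the trend are given side by side, and which of them is nearer to the RNA of the cells was not tested.

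The 15 genes highest in replicate 1, by the fitted difference among counted genes with a mean of 5 CPM or more, ran from 1.02 to 1.26, with a median GC content of 36.0%, and 14 of them stayed counted with the trend removed. ASPM, a protein of the mitotic spindle pole with a transcript GC content of 37.1%, was at 58.4 CPM in shNC replicate 1 and 66.7 in PLEK2 shRNA replicate 1, against 34.1 and 27.4 in shNC replicates 2 and 3 and 25.7 and 18.6 in PLEK2 shRNA replicates 2 and 3. The 2 replicate 1 libraries stood apart from the others, with a fitted log2 difference of 1.26 (SE 0.14), or 0.90 (SE 0.11) with the trend removed. EEA1 was at 23.6 and 32 CPM in replicate 1 and at 11 to 12.3 CPM elsewhere, a difference of 1.24 (SE 0.11), or 0.79 without the trend.

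ITGA2, the alpha subunit of a collagen-binding integrin, was at 167 and 143 CPM in replicate 1, 79.3 and 54.7 in the other shNC libraries, and 75.1 and 70.9 in the other PLEK2 shRNA libraries. Its difference was 1.15 (SE 0.11), and 0.91 with the trend removed. GRHL3, a transcription factor of epithelial barrier genes, was at 21.6 and 15.6 CPM against 7.46 to 9.98 CPM. PRDM1, a transcriptional repressor, was at 15.9 and 13.2 CPM against 5.52 to 8.58 CPM. These last genes have a GC content of 52.2% and 45.6%, and their differences of 1.07 each became 1.16 and 1.01 when the trend was removed. The remaining genes of the 15 were STARD4, CENPE, CCDC186, TBC1D8B, KIF20B, RNF128, N4BP2, SGO2, SAMD9 and RALGPS2. SAMD9 was the one no longer counted with the trend removed, at 0.63, and it also stood apart in the test between treatments given further on.

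The 15 lowest genes ran from -1.23 to -0.86, with a GC content from 41.9% to 72.6% and a median of 58.0%, and 14 of them stayed counted with the trend removed. VGF was at 23.4 and 18.4 CPM in replicate 1, 43.9 and 62.8 in shNC replicates 2 and 3, and 33.8 and 47.0 in PLEK2 shRNA replicates 2 and 3. Both replicate 1 libraries lay below all others, by -1.16 (SE 0.15), or -0.79 with the trend removed. HOXB5, a homeobox transcription factor, was at 10.2 and 8.79 CPM against 15.2 to 21.7 CPM, a difference of -1.0 (SE 0.11), or -0.88. PODXL2, a sialomucin of the cell surface, was at 4.62 and 4.43 CPM against 8.08 to 11.3 CPM, a difference of -1.10 (SE 0.15).

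CBFA2T3, a transcriptional corepressor, was at 27.8 and 25.8 CPM against 46.6 to 53.9 CPM, the tightest groups among these genes, with a difference of -0.90 (SE 0.08). NLRC5, a transactivator of MHC class I genes, was at 6.18 and 5.78 CPM against 10.7 to 12.2 CPM. PRF1, which encodes perforin, was at 8.59 and 6.67 CPM against 13.8 to 16.7 CPM. ATAD3C was at -1.23 (SE 0.21), with -1.84 in shNC and -0.71 in PLEK2 shRNA, so its place as the lowest gene rested on shNC replicate 1. Its estimated counts were not whole in any library, so reads it shares with its near-identical neighbours may have been split between them. FGFBP1, PAK6, AJM1, COL7A1, CCDC9B, ID3, ZSCAN31 and DGAT2 made up the rest, and AJM1, with a GC content of 72.6%, was the one no longer counted with the trend removed (-0.93 against -0.52).

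**Figure D2:**
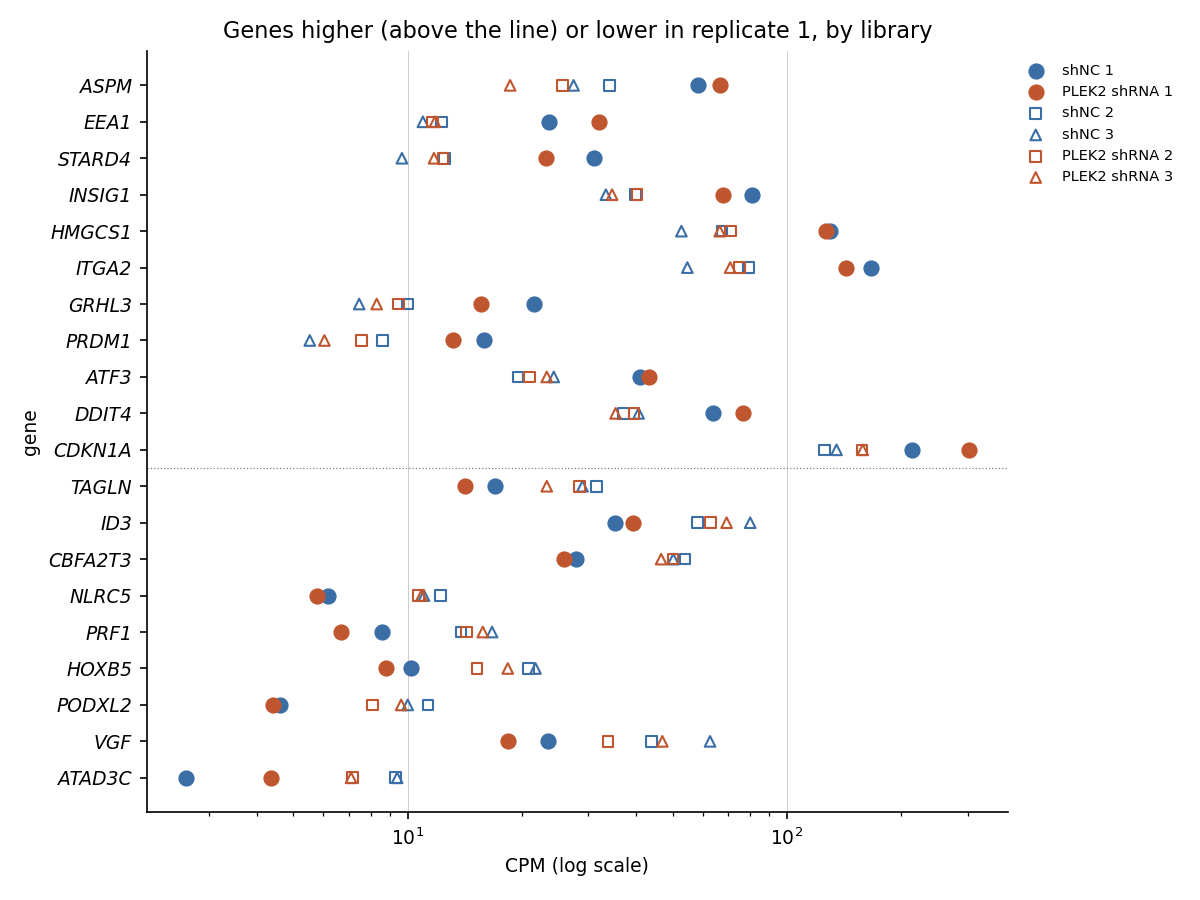
Level of 20 genes in each library, in CPM on a log scale, with filled circles for replicate 1, squares for replicate 2 and triangles for replicate 3, in blue for shNC and orange for PLEK2 shRNA. For every gene shown, chosen for this pattern, both filled circles lie on one side of the open symbols, as for CBFA2T3 with 27.8 and 25.8 CPM against 46.6 to 53.9 CPM.

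For genes of cholesterol synthesis the median replicate 1 difference lay above that of all genes, with and without the trend. All 25 genes listed were in the fit, and 6 were counted as higher (24.0%, against 2.8% of all genes) and 0 as lower. Their median difference was 0.34, beside -0.0052 over all genes, and 0.32 with the trend removed. With the trend removed 5 of the 25 stayed counted (beside 0.722% of all genes in that fit). The median GC content of the list was 49.6%, close to that of all genes. The list's median was 0.41 in shNC and 0.19 in PLEK2 shRNA.

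INSIG1, which holds the SREBP escort protein in the endoplasmic reticulum when sterols are plentiful, was at 81.1 and 68.1 CPM in replicate 1 and at 33.3 to 40.2 CPM elsewhere. Its difference was 1.01 (SE 0.09), or 0.93 with the trend removed. HMGCS1, the enzyme that makes HMG-CoA, was at 129.7 and 127 CPM against 52.7 to 71.0 CPM, a difference of 1.0 (SE 0.09), or 0.71. IDI1, an isomerase of isoprenoid synthesis, was at 86.4 and 89.1 CPM against 42.3 to 49.8 CPM, a difference of 0.91 (SE 0.07), or 0.60. In all 3 genes both replicate 1 libraries were clear of the rest.

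STARD4, a cholesterol transfer protein, was at 31.1 and 23.2 CPM against 9.67 to 12.5 CPM, the largest difference of the list at 1.22 (SE 0.13), or 0.77 with the trend removed. Its counts, like those of SREBF2 below, were not whole in any library, as RSEM gives where reads match more than 1 gene. The other counted members were MSMO1 at 0.83 and HSD17B7 at 0.68, both of them enzymes late in sterol synthesis. MSMO1 was at 0.49 with the trend removed and no longer counted. SREBF2, which encodes the main transcription factor of the pathway, was at -0.11, and 20 of the 25 genes had a difference above 0. In the related list of fatty acid synthesis, 1 of 11 genes was counted as higher (beside 2.8% of all genes), ME1 at 0.62. With the trend removed ME1 was at 0.35 and 0 were counted, while the median went from 0.18 to 0.17.

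Promoter sequences of RefSeq (GRCh38.p14, 250 bases before to 50 after the start) were available for 18 of the 25 genes. The sterol regulatory element core TCACNCCAC, on either strand, was found in 1 of the 18 and in 0 of the 6 counted members, and in 1.13% of all 35116 promoters of the same length. The box CCAAT, on either strand, was found in 15 of 18 (83.3%), in 5 of the 6 counted members and in 34.6% of all promoters. No stretch of the first motif can spell the second. Windows upstream of the start of 3 counted members are shown, with CCAAT or its complement in capitals.
INSIG1 (chr7:155297658-155297762, plus strand): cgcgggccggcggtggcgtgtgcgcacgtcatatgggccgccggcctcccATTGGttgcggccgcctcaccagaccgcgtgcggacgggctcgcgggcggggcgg
HMGCS1 (chr5:43313458-43313562, minus strand): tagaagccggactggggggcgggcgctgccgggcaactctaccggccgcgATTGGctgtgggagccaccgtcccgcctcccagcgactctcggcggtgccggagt
STARD4 (chr5:111512611-111512715, minus strand): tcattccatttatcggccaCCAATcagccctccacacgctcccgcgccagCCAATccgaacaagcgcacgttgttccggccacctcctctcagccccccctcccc
The window of STARD4 holds 2 matches and the others 1 each. Promoters of mitotic genes held CCAAT in 19 of 22 (86.4%). A match describes letters in this window and no more. Elements that depart from the exact string or lie outside the window were not searched for, so an absence says nothing about them.

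Mitotic genes had the highest median of the lists, 0.39, and 26 of 27 were above 0. Of the 27, 6 were counted as higher (22.2%, beside 2.8% of all genes) and 0 as lower, namely ASPM, CENPE, HMMR, CENPF, DLGAP5 and ANLN. The list is low in GC, with a median of 41.9%. With the trend removed its median was 0.24, and 3 genes stayed counted (beside 0.722% of all genes in that fit), ASPM, CENPE and CENPF. CENPE, a kinetochore motor, was at 21.3 and 29.1 CPM against 8.49 to 12.4 CPM, a difference of 1.2 (SE 0.15). TOP2A, which untangles sister chromatids, was at 279.9 and 261 CPM against 168 to 200.4 CPM, a difference of 0.56 (SE 0.07), and of 0.28 with the trend removed. CCNB1, the mitotic cyclin, was at 241 and 221 CPM against 169 to 181 CPM, a difference of 0.39 (0.20 with the trend removed). The sign differed between treatments for PLK1, a kinase of mitosis, at 0.10 in shNC and -0.37 in PLEK2 shRNA, and for MKI67, a marker of dividing cells, at 0.34 and -0.11. Genes of DNA replication had a median of -0.0071 and none of 28 was counted. CDT1, which licenses replication origins, was at -0.50, or -0.23 with the trend removed.

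Of the genes activated by p53, 27 of 29 were in the fit, 24 were above 0 and 4 were counted as higher (14.8%, beside 2.8% of all genes). The median was 0.35, and 0.23 with the trend removed, when 4 were also counted (beside 0.722% of all genes in that fit). These were CDKN1A and TP53INP1, counted in both fits, and BTG2 and TP53I3. CDKN1A, which encodes the cell cycle inhibitor p21, was at 214 CPM in shNC replicate 1 and 302 CPM in PLEK2 shRNA replicate 1. It was at 126 and 135 CPM in the other shNC libraries and at 158 and 159 CPM in the other PLEK2 shRNA libraries. Both treatments were thus higher in replicate 1, by 0.72 in shNC and 0.93 in PLEK2 shRNA, and the fitted difference of 0.83 (SE 0.06) became 0.98 with the trend removed, since the transcript has a GC content of 57.3%.

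RRM2B, a p53-induced subunit of ribonucleotide reductase, was at 58.3 and 80.1 CPM against 32.9 to 40.9 CPM. Its difference of 0.88 became 0.44 with the trend removed, and its GC content is 35.1%. PMAIP1, a BH3-only death gene, was at 56.6 and 59.4 CPM against 28.0 to 33.8 CPM, with differences of 0.87 and 0.48. MDM2, the ubiquitin ligase of p53, was at 118 and 89.5 CPM against 65.1 to 80.5 CPM. The list's median was 0.17 in shNC and 0.35 in PLEK2 shRNA. BBC3 and GDF15 were higher in the PLEK2 shRNA library of replicate 1 alone, with differences of 0.83 and 0.82 there and of -0.00030 and 0.076 in shNC.

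Targets of ATF4 were split. Of 33 listed, 30 were in the fit, and 5 were counted as higher (16.7%, beside 2.8% of all genes), but the median was 0.020, and 0.10 with the trend removed. ATF3, a stress-induced transcription factor, was at 41.0 and 43.2 CPM in replicate 1 and 19.5 to 24.3 CPM elsewhere. Its difference of 0.93 (SE 0.09) was 0.97 with the trend removed. DDIT4 was at 64.0 and 76.6 CPM against 35.4 to 40.7 CPM, a difference of 0.88 (SE 0.08), or 1.03. CHAC1, a glutathione-degrading enzyme, was at 7.16 and 5.71 CPM against 2.60 to 3.35 CPM, a difference of 1.04 (SE 0.17), or 1.24. DDIT3, which encodes the stress factor CHOP, was at 0.61 and 0.66.

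The targets that make amino acids were not among the higher genes. ASNS, asparagine synthetase, was at 123 and 106 CPM in replicate 1 against 113 to 161 CPM, with overlapping groups, a difference of -0.25 and counts that were not whole in any library. TRIB3, a pseudokinase that restrains ATF4, was at -0.11. PSAT1 and PHGDH, enzymes of serine synthesis, were at -0.01 and -0.23, and SLC7A5, a leucine transporter, at -0.28. SLC7A11, the cystine transporter, was at 0.76, and at 0.34 with the trend removed.

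The other lists of stress and growth held few counted genes. Of the heat shock genes, 2 of 16 were counted as higher (beside 2.8% of all genes), HSPA4L at 0.74 and CHORDC1 at 0.73, and 0 with the trend removed, while the median stayed at 0.20 and 0.22. Of the immediate early genes, 1 of 23 was counted as higher (beside 2.8% of all genes), ATF3, and 2 with the trend removed (beside 0.722%), ATF3 and BTG2, with a median that went from 0.07 to 0.23. FOS and EGR1, transcription factors induced by serum, were at 0.01 and 0.13. Of the hypoxia-inducible genes 0 of 17 were counted, and 2 of 17 with the trend removed (beside 0.722% of all genes in that fit). Of 17 NRF2 targets ME1 and SLC7A11 were counted as higher and AKR1C3 as lower (beside 2.8% and 2.19% of all genes), with a median of -0.024. With the trend removed AKR1C3 was the one still counted (beside 0.949% of all genes counted as lower in that fit). AKR1C3 was at -0.69, but at -1.35 in shNC and -0.24 in PLEK2 shRNA, so its size rested on shNC replicate 1. FOXO and quiescence genes had a median of 0.19 and 0 of 17 counted, or 0.10 and 1 counted with the trend removed (beside 0.722% of all genes).

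Genes of TGF-beta and BMP signalling had 8 of 9 differences below 0, a median of -0.16 and 2 members counted as lower (22.2%, beside 2.19% of all genes). Both were counted with the trend removed too (beside 0.949% of all genes in that fit), when the median was -0.14. ID3, an inhibitor of differentiation and a BMP target, was at 35.2 and 39.3 CPM against 58.1 to 80.1 CPM. The replicate 1 libraries were both lower, by -0.86 (SE 0.11), or -0.71 with the trend removed. ID1 was at 139.8 and 141 CPM against 185 to 225 CPM, a difference of -0.50. SMAD6, a feedback inhibitor of BMP signalling, was at 3.84 and 4.04 CPM against 6.44 to 7.73 CPM. SKIL, at 0.35, went the other way, and at -0.14 with the trend removed. The list also moved among the other libraries. Its median for replicate 3 minus replicate 2 was 0.14, with ID3 at 0.30 and 0 members called.

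Of 14 SRF targets and genes of the actin cytoskeleton, TAGLN and MYL9 were counted as lower (2 of 14, beside 2.19% of all genes). TAGLN, which encodes transgelin, an actin-binding protein, was at 17.0 and 14.2 CPM against 23.3 to 31.5 CPM, a difference of -0.85 (SE 0.10), and -0.71 with the trend removed. The counts of TAGLN were not whole in any library. MYL9, a myosin light chain, was at -0.65, and at -0.44 and no longer counted with the trend removed. FHL2 of the same list was at 0.40, and the median of -0.094 became 0.019 with the trend removed. Of 11 NF-kB targets, 2 were counted as lower (beside 2.19% of all genes), ICAM1 and NFKBIA, at -0.61 and -0.59, and neither was with the trend removed. CD44, a surface glycoprotein and Wnt target, was at 575 and 532 CPM against 761 to 796 CPM, a difference of -0.48 that became -0.58 with the trend removed, just short of the limit.

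The 79 cytosolic ribosomal protein genes had a median of -0.10 (-0.083 with the trend removed), with 15 above 0 and none counted. Their summed level was 62648 CPM in shNC replicate 1 and 65775 CPM in PLEK2 shRNA replicate 1. It was 67984 and 74579 CPM in shNC replicates 2 and 3, and 68040 and 68513 CPM in PLEK2 shRNA replicates 2 and 3. Their median for replicate 3 minus replicate 2 was 0.079. The 74 respiratory chain subunits were at -0.048 and the 35 proteasome subunits at 0.039, with none counted. Epithelial markers had a median of -0.19, or -0.072 with the trend removed, and OCLN at 0.61 was the 1 of 12 counted as higher (beside 2.8% of all genes), and was at 0.32 and not counted with the trend removed. Of 8 histone genes in the fit, 3 were counted as lower (beside 2.19% of all genes), with a list median of -0.21, and 0 with the trend removed, when the median was -0.10. HIST2H2AA3 and HIST2H2AA4 have the same CPM in all 6 libraries, as for reads split evenly between 2 copies, so the 3 rest on 2 measurements. Interferon response genes had a median of -0.15 with 1 of 22 lower, and Wnt targets one of -0.073 with 2 of 13 lower (both beside 2.19% of all genes), and none of either list was counted with the trend removed. None was counted in either fit in the lists of endoplasmic reticulum chaperones, glycolysis, MondoA targets, YAP and TEAD targets, ERK feedback, lysosome and autophagy, ribosome biogenesis, metallothioneins or intestinal differentiation.

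**Figure D3:**
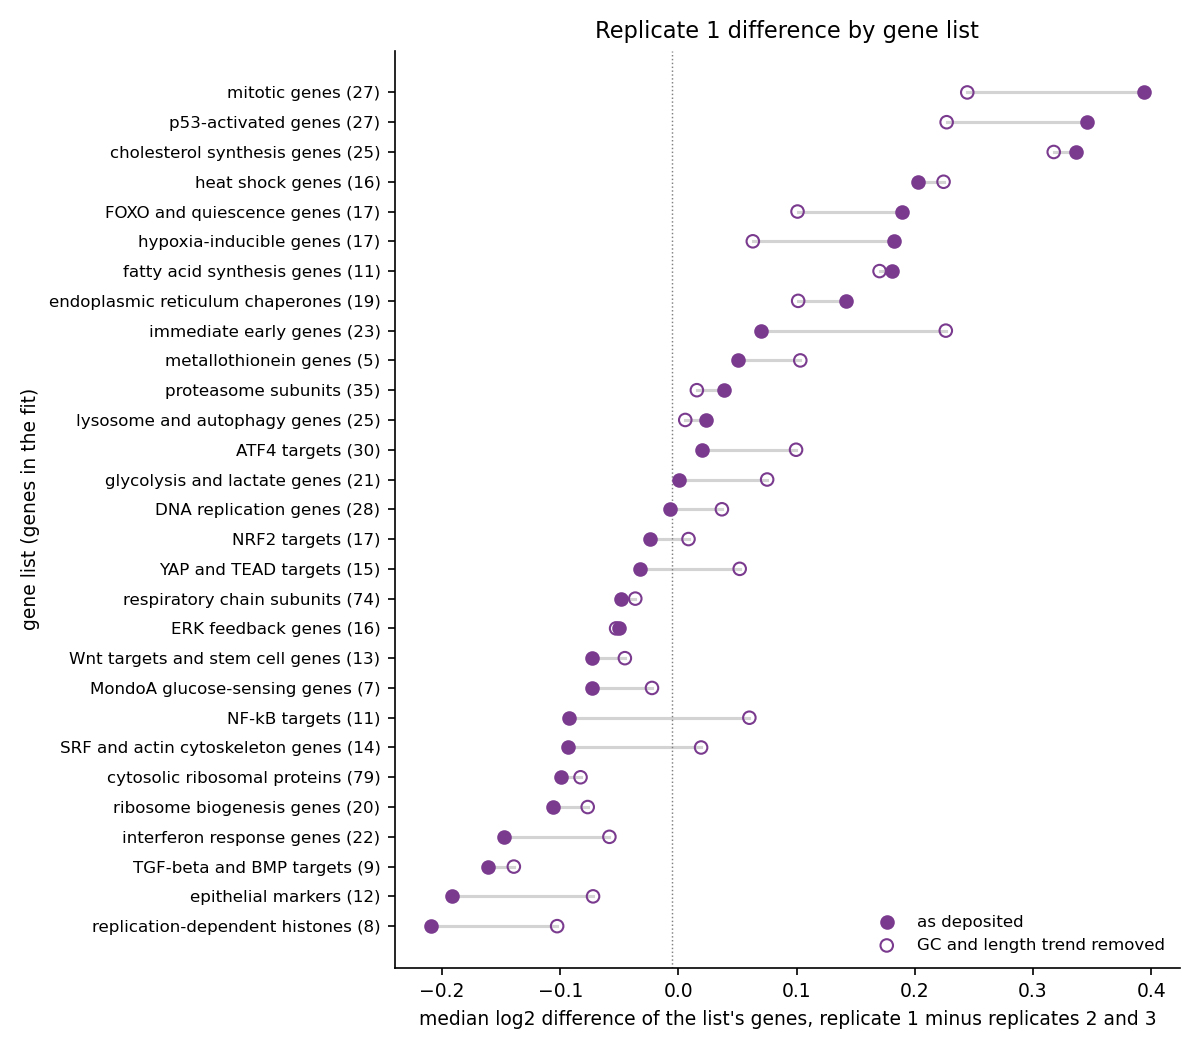
Median log2 difference between replicate 1 and replicates 2 and 3 for each gene list with 5 or more genes in the fit (number of genes in parentheses), as deposited (filled) and with the GC and length trend removed (open). The dotted line is the median of all genes, -0.0052, and cholesterol synthesis stays at 0.34 and 0.32 while the mitotic genes go from 0.39 to 0.24.

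Whether the replicate 1 difference was the same in both treatments was tested with an interaction term (edgeR quasi-likelihood test, Benjamini-Hochberg adjustment over 12510 genes). It differed in 17 genes (0.136%), larger with PLEK2 shRNA in 11 and smaller in 6. At an unadjusted p under 0.05 there were 1032 genes. The test had 2 residual degrees of freedom, which come from replicates 2 and 3 alone, and each treatment has 1 library of replicate 1, so a deviation of that single library cannot be told apart from a different response. Without one of the 4 other libraries the test called 53 to 384 genes, with 384 without shNC replicate 2. With all genes of at least 1 count it called 1 gene, none of the 17, and the DESeq2 Wald test called 5. With the trend removed 28 genes were called, and 12 of the 17 were among them, while SMIM11B and LOC102724219 had no GC value and could not be tested.

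PLEK2 itself was among the 17. Its level was 85.8, 72.3 and 82.6 CPM in shNC replicates 1 to 3 and 16.2, 32.2 and 35.0 CPM in PLEK2 shRNA replicates 1 to 3, so the groups did not overlap. The log2 ratio of PLEK2 shRNA to shNC was -2.41 in replicate 1, -1.17 in replicate 2 and -1.24 in replicate 3. The replicate 1 difference was therefore lower with PLEK2 shRNA by -1.20 (SE 0.16, adjusted p = 0.00552 by edgeR). The lowest PLEK2 level of all was thus in PLEK2 shRNA replicate 1.

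TYMS, thymidylate synthase, which makes dTMP for DNA synthesis, was also lowest in PLEK2 shRNA replicate 1. It was at 199, 147 and 145 CPM in shNC and at 46.1, 76.2 and 77.6 CPM in PLEK2 shRNA, with ratios of -2.11, -0.95 and -0.90 by replicate. The difference between treatments was -1.18 (SE 0.12, edgeR adjusted p = 0.000209), the smallest p of the test. Its counts were not whole in any library, so reads shared with an overlapping or similar gene may have been split, and its level is uncertain to that extent. NIPSNAP1, a mitochondrial protein with a part in mitophagy, had ratios of -1.46, -0.65 and -0.69 and a difference of -0.79 (SE 0.13, edgeR adjusted p = 0.0201). GEMIN5, an snRNA-binding subunit of the SMN complex, had ratios of -1.24, -0.39 and -0.36. TXNRD1, the cytosolic thioredoxin reductase, was at 764, 625 and 534 CPM in shNC and 318, 414 and 384 CPM in PLEK2 shRNA, with ratios of -1.27, -0.59 and -0.47. These 5 genes were called with the trend removed too, and all 5 were also lower with PLEK2 shRNA in the model with a replicate 1 term.

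Most of the genes that went the other way had long transcripts low in GC. They were chosen, like GEMIN5 and TXNRD1 above, after their values were seen. ZNF518A, ATRX, PHIP, ZNF292, SAMD9, ESF1 and TROVE2, all larger with PLEK2 shRNA, have a GC content from 34.0% to 36.9%. ATRX, a chromatin remodeller, was at 59.4, 51.3 and 47.0 CPM in shNC and 80.9, 40.0 and 31.4 CPM in PLEK2 shRNA, a difference of 0.91 (SE 0.17, edgeR adjusted p = 0.0396). SAMD9, an antiviral factor, was at 11.8, 9.63 and 9.80 CPM in shNC and 19.6, 6.63 and 5.18 CPM in PLEK2 shRNA. Over the quintile of genes with the lowest GC content the median of this difference was 0.10, against -0.057 in the middle quintile and 0.055 in the highest. With the trend removed ZNF518A, ATRX, ZNF292 and SAMD9 stayed called, at 0.76 to 1.27. PHIP, ESF1 and TROVE2 did not, at 0.71, 0.53 and 0.51 (adjusted p = 0.0939, 0.115 and 0.115 by edgeR). The calls of SMIM11B, SULT1A4, NPIPA7 and ASB3 rest on counts that were not whole in any library, and that of LOC102724219 on counts not whole in 5, so reads split among near-identical or overlapping genes leave them uncertain.

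**Figure D4:**
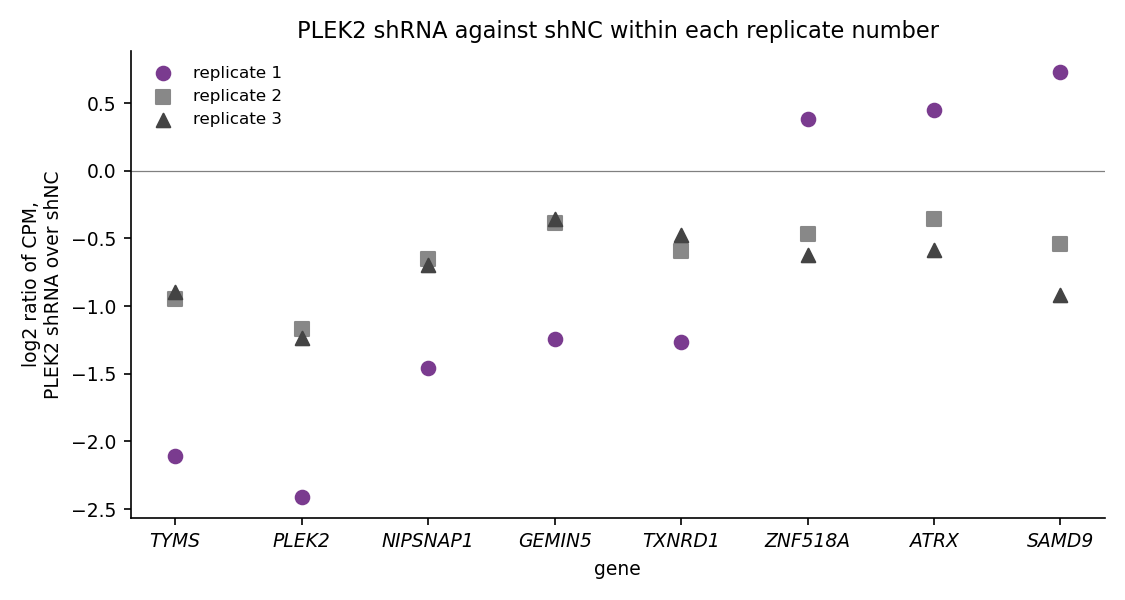
Log2 ratio of CPM in PLEK2 shRNA over shNC libraries of the same replicate number, for 8 genes called in the test between treatments, with circles for replicate 1, squares for replicate 2 and triangles for replicate 3. In TYMS, PLEK2, NIPSNAP1, GEMIN5 and TXNRD1 the circle is the lowest point, at -2.41 for PLEK2, and in ZNF518A, ATRX and SAMD9 it is the one point above 0.

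Replicate 3 was tested against replicate 2, a contrast that the choice of replicate 1 did not use. The edgeR test with the replicate number as a block called 1 gene (0.00799%), RGPD5, at -0.91 (SE 0.10, adjusted p = 0.00956), and 861 genes had an unadjusted p under 0.05. Leaving out 1 library at a time gave 0 to 173 calls, with 0 without shNC replicate 2 (331 at an unadjusted p under 0.05, and 0 calls by DESeq2) and 173 without shNC replicate 1. RGPD5 was at 54.6 and 25.5 CPM in shNC replicates 2 and 3 and at 47.3 and 28.8 CPM in PLEK2 shRNA. Its near-identical copy RGPD6 went the other way, from 7.52 to 28.9 CPM and from 18.3 to 29.5 CPM, a difference of 1.21, and neither has whole counts, so reads split between them leave both uncertain. The next genes did not pass, at an adjusted p of 0.0849 each by edgeR. KRT7, a simple epithelial keratin, was at -0.62, VGF at 0.50 and BMI1, a Polycomb subunit whose counts were not whole in any library, at -0.46. ASNS had the same adjusted p, at -0.39. A fitted size of 1.5-fold or more was seen in 113 genes between replicates 3 and 2 and in 677 between replicate 1 and the others, the latter a contrast chosen for its size. The median of replicate 3 minus replicate 2 was -0.026 in the quintile of lowest GC content and 0.020 in the highest.

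With a replicate 1 term in the model, PLEK2 shRNA differed from shNC in 62 genes (0.496%), 10 higher and 52 lower, by edgeR at an adjusted p under 0.05. Without any replicate term the same test called 0 genes, with 388 at an unadjusted p under 0.05, and DESeq2 called 11. Without shNC replicate 3 the model with a replicate 1 term called 259 genes, and without any other single library 20 to 30. With the replicate number as a block it called 87, among them KRT7 (adjusted p = 0.0068 by edgeR) and VGF (0.0237), which the replicate 1 term alone did not call. Of the 350 genes counted as higher in replicate 1, 2 were also called for PLEK2 shRNA and 6 for the difference between treatments. Of the 274 counted as lower, 0 and 0 were. Over all genes in the fit the shares called were 0.496% for PLEK2 shRNA and 0.136% for the difference between treatments. PLEK2 was at -1.57 (SE 0.16, edgeR adjusted p = 0.000733), TYMS at -1.31 (SE 0.16, edgeR adjusted p = 0.00196) and CDKN1A at 0.35 (SE 0.06, edgeR adjusted p = 0.0219). The calls of PLEK2 and TYMS were lost with no replicate term, and that of CDKN1A also with all genes of at least 1 count and on leaving out any single library other than shNC replicate 3. For CDKN1A the log2 ratio of PLEK2 shRNA to shNC was above 0 in each replicate number, at 0.50, 0.33 and 0.23.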

How the data were processed

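RNA was read from 6 HCT116 libraries as single-end 50-base reads on the DNBSEQ platform after oligo(dT) selection. The authors deposited 1 table of estimated counts (RSEM) with normalized values, read here as FPKM from their sums of 499190 to 529766, and columns of group means and the authors' own comparisons, which were not used. The submitters' processing notes name HISAT2 2.0.4, Bowtie2 2.2.5, RSEM 1.2.12, DESeq2 1.4.5 and GRCm38.p6, a mouse build, although the symbols and gene IDs are human. Groups and replicate numbers came from the labels. The deposited expected counts were rounded, genes with at least 10 counts in every library kept, and quasi-likelihood models fitted with edgeR 4.0.16 (TMM) in R 4.3.3, with Benjamini-Hochberg adjustment at 0.05. DESeq2 1.42.0 was an alternative. GC content, length and gene coordinates came from GENCODE 44 on GRCh38 (16506 of 17047 genes matched); the trend was a natural spline with 5 degrees of freedom on each, chosen after seeing the data. The counting's use of strand is not given in the sources used here. Fits were tested on simulated data.

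The members, gene lists and tests were chosen with earlier results of these data known. Named genes were the 15 largest differences in each direction among counted genes with a mean of at least 5 CPM, the 3 largest per list, PLEK2, TYMS and CDKN1A, and the 5 smallest p of the test between treatments and of replicate 3 against 2. Other members of a list and genes beside these were added after their values were seen, and a few results are not reported here. Same-numbered libraries deviated together, with correlations of 0.64, 0.39 and 0.43 for numbers 1, 2 and 3, though shNC 3 with PLEK2 shRNA 2 (0.27) and shNC 2 with PLEK2 shRNA 3 (0.25) did so too, a pairing taken from the data, since the labels do not say what a number marks. Nothing says that libraries came from separate cultures, so p-values measure the spread between these samples, which may be technical.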

Additional observations from a re-analysis of the deposited data

Results flagged for a closer look

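The replicate 1 difference differed between shNC and PLEK2 shRNA, by the interaction test of edgeR, in 17 genes. The values are the log2 difference of replicate 1 from replicates 2 and 3 with PLEK2 shRNA minus the same with shNC. It was smaller with PLEK2 shRNA for PLEK2 (-1.20), TYMS (-1.18), GEMIN5 (-0.87), NIPSNAP1 (-0.79), TXNRD1 (-0.73) and LOC102724219 (-1.71). With every gene that had a count in the test, none of the 17 was called, and 12 were not called by the DESeq2 Wald test. The first 5 of those named kept their sign under each alternative that could be fitted, from -1.30 to -1.10 for PLEK2 and from -1.19 to -1.16 for TYMS.

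It was larger with PLEK2 shRNA for SMIM11B (2.32), SULT1A4 (2.08), ASB3 (1.53), SAMD9 (1.45), ZNF292 (1.01), ZNF518A (0.92), NPIPA7 (0.91), ATRX (0.91), PHIP (0.85), ESF1 (0.78) and TROVE2 (0.77). SMIM11B, SULT1A4, ASB3, NPIPA7 and LOC102724219 have estimated counts that were not whole in 5 or 6 libraries. GC content ran with the other genes of this direction, and its part in their values was not tested.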

How the results depend on the processing

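DESeq2 size factors, library totals and filterByExpr kept the counts of genes higher and lower in replicate 1, of calls between treatments and of PLEK2 shRNA calls within 1.5 times, and replicate 3 against 2 gave 4 calls with library totals. With all genes of at least 1 count, 533 were higher, 602 lower, 1 was called between treatments, 7 for replicate 3 against 2 and 27 for PLEK2 shRNA. With log2(FPKM + 1), which shrinks differences of low genes, 115 were higher and 51 lower, and at 2-fold 29 and 12. With the GC and length trend removed 89 were higher, 117 lower, 28 called between treatments and 6 for replicate 3 against 2; with the replicate block too, PLEK2 shRNA gave 127 calls. With the replicate block alone, the pairing by number gave 354 higher, 270 lower and 87 PLEK2 shRNA calls, beside 62 with the replicate 1 term and 0 by edgeR with no replicate term (388 at an unadjusted p under 0.05, and 11 by DESeq2 with adjustment). The DESeq2 Wald test called 5 genes between treatments and 126 for PLEK2 shRNA.

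Leaving out 1 library at a time gave 292 to 651 higher genes (651 without shNC replicate 1) and 227 to 540 lower genes (540 without PLEK2 shRNA replicate 1). It gave 53 to 384 calls between treatments (384, 130, 65 and 53 without shNC 2, shNC 3, PLEK2 shRNA 2 and PLEK2 shRNA 3), where the lone library of an arm was assumed to vary like the others. That test could not be fitted without a replicate 1 library. Replicate 3 against 2 gave 0 to 173 calls by edgeR (173, 0, 24, 172, 2 and 90 without shNC 1, 2, 3 and PLEK2 shRNA 1, 2, 3; the 0 had 331 at an unadjusted p under 0.05, and DESeq2 also called 0), and PLEK2 shRNA 20 to 259 calls (30, 23, 259, 30, 20 and 28 in the same order). Counts of calls thus rested on single libraries. The medians of 2 lists changed sign, blood cell markers to 0.15 with all genes of at least 1 count (more of its genes tested) and mesenchymal markers to 0.11 with the trend removed (3 genes), and no counted named gene changed sign. Total counts differed little between libraries, and where depth limits the calls was not measured.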
